A study of Mus musculus with 8 samples.

Results

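The 10 genes described here encode the ligands and receptors of epidermal growth factor (EGF) signalling: the ligands Egf, Hbegf, Areg, Ereg, Btc and Tgfa and the receptors Egfr, Erbb2, Erbb3 and Erbb4. They were chosen by name and matched by Ensembl identifier among the 37583 gene rows, and all 10 had a row. Of these, 8 passed the filter on low counts and were tested, among 15228 genes in all. Areg and Ereg did not pass it. The kidneys came from b-actinCreERT2+TFAP2Bfl/fl mice, labelled knockout (n = 4), and from control littermates labelled wildtype (n = 4). In the mice labelled knockout Cre fused to a tamoxifen-binding receptor domain and driven by the beta-actin promoter, which is active in nearly all cell types, acts on floxed alleles of Tfap2b, the gene of the transcription factor AP-2 beta. RNA was taken from whole kidney, so all cell types of the organ contribute. Sex, age, tamoxifen dosing, time after induction and whether the controls carried floxed alleles or received tamoxifen are not stated in the labels.

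The ligand genes of this family encode membrane-anchored precursors that proteases cut to release the soluble factor. EGF, transforming growth factor alpha (Tgfa) and amphiregulin (Areg) bind EGFR, while betacellulin (Btc), heparin-binding EGF-like growth factor (Hbegf) and epiregulin (Ereg) bind EGFR and ERBB4. ERBB2 has no known direct ligand and pairs with the other receptors, and ERBB3, which binds neuregulins, has little kinase activity of its own. In the kidney, Egf is made mostly by the distal convoluted tubule and thick ascending limb and its product is known for promoting tubular repair and magnesium reabsorption, whereas Hbegf, Areg and Tgfa are known as ligands induced after tubular injury.

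Each library held 13435113 to 17930347 gene counts under the knockout label and 13783857 to 17741722 under the wildtype label. Counts of the targeted gene were higher under the knockout label: Tfap2b stood between 237.0 and 266.5 CPM (a gene's counts relative to the library's TMM-scaled total) under the knockout label and between 94.3 and 110.5 CPM under the wildtype label. Since whole-gene counts also cover exons that a deletion leaves in place, they do not check it, and every direction below is that of the labels. Among 11 distal convoluted tubule markers 8 fell, among 11 thick ascending limb markers 8 fell, and both lists were detected in every library. Of all genes tested, 5.7% fell at an edgeR adjusted p under 0.05. The adrenal list of 8 genes summed to 242 CPM in knockout 4 and to at most 8.89 CPM in any other library, so results are also given without knockout 4. A clock score, the mean log2 CPM of 9 clock output genes minus that of 3 clock activators, was 0.911, -1.12, -1.44 and -0.70 in kidneys labelled knockout and 0.195, 1.53, 3.36 and 2.11 in those labelled wildtype. The part of the clock score in the results was not tested except as a term in the fit. That fit is given where it ends the call of a member, a named pathway gene or a named gene of closest pattern. The label replicates are kidneys, and nothing states further how they were collected. The p-values set the difference between the groups against the spread between these samples.

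Positions are those of GENCODE M21 (GRCm38), used only to place the genes, since the deposited counts name mm9. Egf (ENSMUSG00000028017) spans 129677565 to 129755316 on the minus strand of chromosome 3. Epgn, Ereg, Areg and Btc, in that order, lie within 376 kb of chromosome 5, where Btc (ENSMUSG00000082361) spans 91357261 to 91402994 and Areg 91139599 to 91148432. Tgfa lies on chromosome 6, Egfr and Erbb2 on chromosome 11, Erbb3 on chromosome 10 and Erbb4 on chromosome 1. Antisense transcripts share 5.38% and 4.43% of the exon bases of Egf and have no row in the files. The counts were named as not stranded, so reads of those antisense transcripts cannot be told apart from reads of Egf there.

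Promoter windows of RefSeq (GRCm38.p6; 250 bases before the gene start to 50 after it) were matched for 7 of the 10 genes, 8 windows in all because Egf has 2 starts. Windows of Egf, Btc and Egfr are shown because these genes changed most and because their windows differ in CG dinucleotides, written here in capitals.
Egf, chr3:129755273-129755572, minus strand: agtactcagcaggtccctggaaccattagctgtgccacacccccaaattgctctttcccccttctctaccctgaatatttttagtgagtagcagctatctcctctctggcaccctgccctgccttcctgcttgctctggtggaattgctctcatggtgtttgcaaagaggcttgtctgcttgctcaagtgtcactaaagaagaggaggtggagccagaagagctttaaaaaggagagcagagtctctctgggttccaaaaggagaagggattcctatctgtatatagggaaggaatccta
Btc, chr5:91402945-91403244, minus strand: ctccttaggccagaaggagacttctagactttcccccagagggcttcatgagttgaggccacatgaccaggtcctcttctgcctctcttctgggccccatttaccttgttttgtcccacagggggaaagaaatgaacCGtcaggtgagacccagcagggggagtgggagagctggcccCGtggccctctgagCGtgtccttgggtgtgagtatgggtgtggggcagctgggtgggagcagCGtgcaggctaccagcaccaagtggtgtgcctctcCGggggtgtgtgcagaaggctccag
Egfr, chr11:16751953-16752252, plus strand: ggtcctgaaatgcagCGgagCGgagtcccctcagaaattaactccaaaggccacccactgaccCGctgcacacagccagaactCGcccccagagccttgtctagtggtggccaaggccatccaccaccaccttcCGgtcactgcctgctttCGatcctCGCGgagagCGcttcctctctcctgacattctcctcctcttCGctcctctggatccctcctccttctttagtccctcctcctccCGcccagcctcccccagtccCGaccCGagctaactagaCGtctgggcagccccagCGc

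The upstream Egf window holds 0 CG dinucleotides, as do 5.43% of all 32851 windows, and its second window holds 17. Btc holds 5, against a median of 7 over all windows, and Egfr holds 15. Erbb2, Areg, Tgfa and Erbb4 hold 21, 21, 24 and 17. The AP-2 consensus GCCNNNGGC, which reads the same on both strands, was found in 1 of the 8 windows, that of Tgfa, and in 16.6% of all windows. The Tgfa window is shown with its matches in capitals.
Tgfa, chr6:86194972-86195271, plus strand: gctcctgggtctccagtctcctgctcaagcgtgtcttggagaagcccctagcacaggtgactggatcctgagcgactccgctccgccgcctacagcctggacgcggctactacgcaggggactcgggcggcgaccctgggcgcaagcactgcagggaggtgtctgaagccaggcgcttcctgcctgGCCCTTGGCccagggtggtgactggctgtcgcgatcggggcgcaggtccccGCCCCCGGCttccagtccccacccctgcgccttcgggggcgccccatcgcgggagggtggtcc

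The matches begin 64 and 13 bases before the Tgfa start, and Tgfa did not pass the test between the groups. A match or its absence in these 300 bases describes the letters and not binding.

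Egf was the member that fell most. It stood at 1372, 935.2, 1207 and 1097 CPM in kidneys labelled knockout, against 4107, 3526, 3278 and 4024 CPM in those labelled wildtype. The groups did not overlap: the highest library labelled knockout, knockout 1, was below the lowest labelled wildtype, wildtype 3. Egf was 3.24-fold lower (log2 fold change -1.70 ± 0.13, SE; edgeR adjusted p = 2.64e-05), on 15185 to 23472 counts per library labelled knockout and 48265 to 66329 per library labelled wildtype. The change passed in each of 18 other fits, at -1.80 to -1.59. In a whole kidney, fewer cells of a type and less RNA per cell cannot be told apart. Over all genes tested, 1817 or 11.9% were called, 949 or 6.23% rising and 868 or 5.7% falling, and the groups did not overlap for 2812 or 18.5%. With library totals in place of TMM, 1658 genes rose and 508 fell, 76.5% of calls rising against 52.2%, and the median of all genes was 0.11. Of the 8 members tested, 1 rose and 3 fell, and the groups did not overlap for the same 4.

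**Figure D1:**
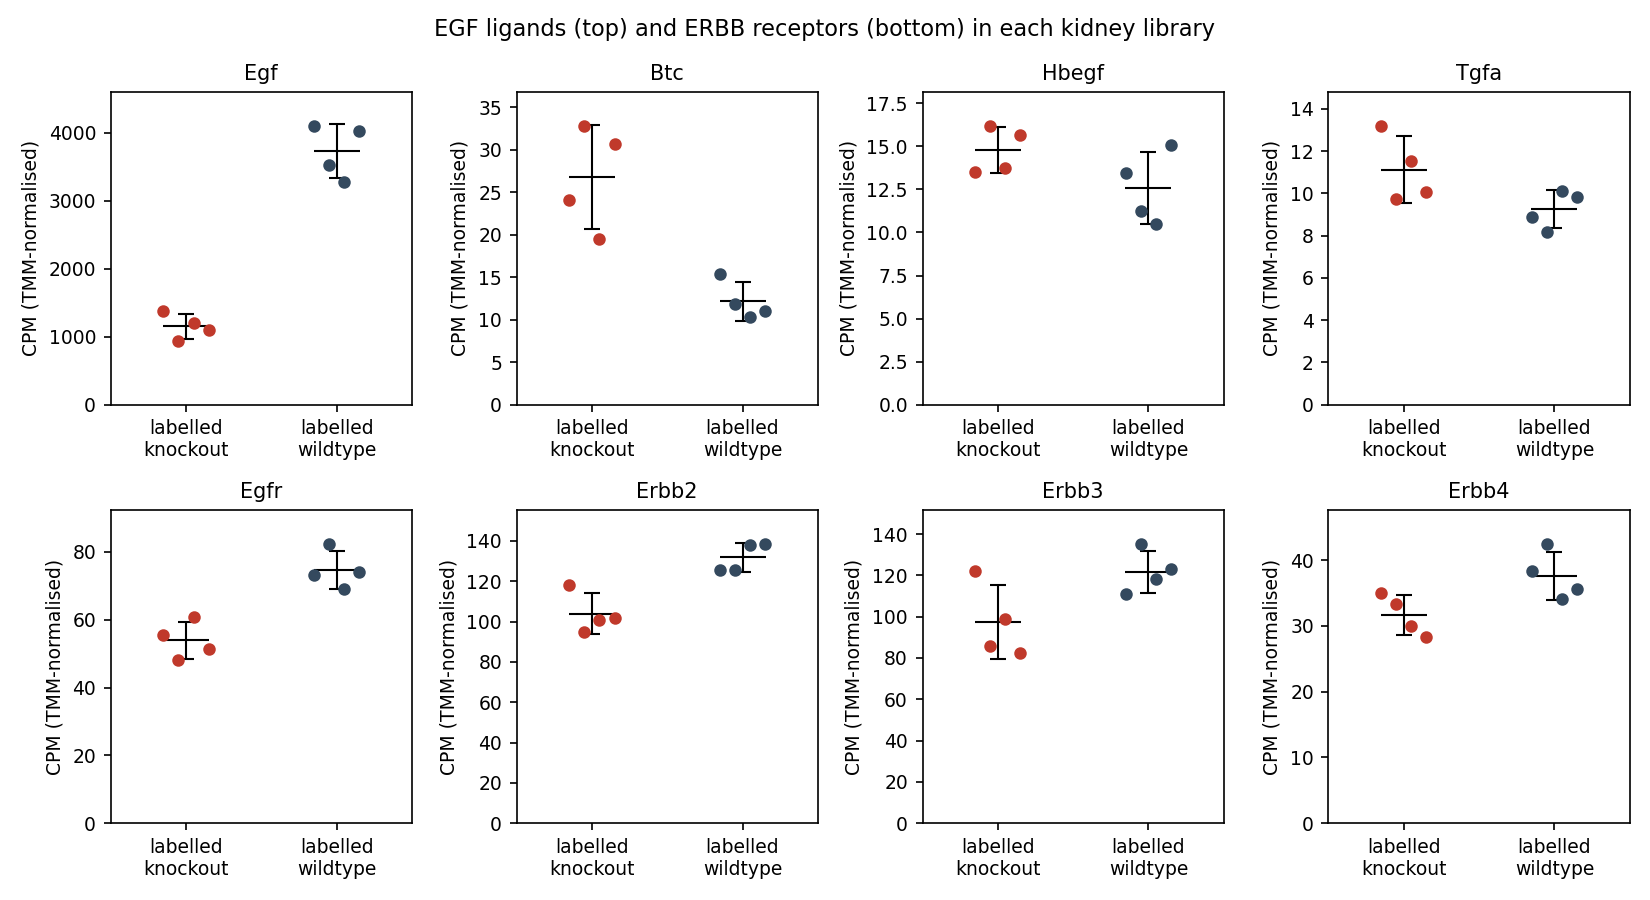
TMM-normalised CPM of the 8 tested members in each library, with kidneys labelled knockout on the left and labelled wildtype on the right; points are libraries, the bar is the mean and the whiskers the SD (n = 4 each). The groups did not overlap for Egf, Btc, Egfr and Erbb2, and they overlapped for Hbegf, Tgfa, Erbb3 and Erbb4.

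The fall of Egf was set against defining genes of the cells that make it. Slc12a3, the thiazide-sensitive cotransporter of the distal convoluted tubule, fell by 1.16 ± 0.12 on the log2 scale (edgeR adjusted p = 0.000218), and Umod, the uromodulin gene of the thick ascending limb, by 1.01 ± 0.12 (adjusted p = 0.000575). Of the 22 markers of both segments, 16 fell, and Pvalb was the only marker with a more negative log2 fold change than Egf. Within each library, Egf minus Umod was -1.49, -1.76, -1.45 and -1.54 log2 units in kidneys labelled knockout and -0.87, -0.775, -0.847 and -0.942 in those labelled wildtype. The groups did not overlap, and the difference of -0.70 had exact permutation p = 0.0286, the smallest 4 against 4 allows, and 0.0572 adjusted over the 2 ratios. Egf minus Slc12a3 was 1.24, 0.48, 0.983 and 0.848 log2 units in kidneys labelled knockout and 1.72, 1.33, 0.924 and 1.80 in those labelled wildtype. Here wildtype 3 lay within the range of the other group, and the difference of -0.56 had exact permutation p = 0.0857. With 2 ratios, 1 ratio alone at the smallest p could not pass after adjustment.

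Betacellulin moved the other way. Btc stood at 24.1, 32.8, 19.5 and 30.6 CPM in kidneys labelled knockout, against 15.4, 11.8, 10.3 and 11.0 CPM in those labelled wildtype. Every library labelled knockout was above every library labelled wildtype, and the fold was 2.21 (log2 fold change 1.14 ± 0.18, edgeR adjusted p = 0.00302). It did not pass once the clock score was a term (0.87, at an adjusted p of 0.0895). No gene annotated in GENCODE M21 overlaps Btc.

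The ligands known from injury were low beside Egf. Hbegf and Tgfa were not called, and Areg, like Ereg, did not pass the filter and was not tested. Hbegf was at 13.5, 16.2, 13.8 and 15.7 CPM in kidneys labelled knockout, against 13.5, 11.3, 10.5 and 15.1 CPM in those labelled wildtype, with overlapping groups (log2 fold change 0.23 ± 0.13, edgeR adjusted p = 0.285). Tgfa was at 13.2, 9.72, 11.5 and 10.0 CPM in kidneys labelled knockout, against 8.89, 8.18, 10.1 and 9.83 CPM in those labelled wildtype, again overlapping (0.26 ± 0.13, adjusted p = 0.224). Areg had 1 count over all kidneys labelled knockout and 0 over those labelled wildtype, which allows up to 0.0476 CPM over that group. Ereg had 1 count over kidneys labelled knockout and 8 over those labelled wildtype, a ratio of 0.124 (95% exact interval 0.00278 to 0.922, for counting error only). By library its counts were 1, 0, 0 and 0 under the knockout label and 0, 4, 2 and 2 under the wildtype label. The groups overlapped, and the interval leaves out the spread between kidneys. The near absence of Areg counts stands beside an injury list in which 8 of 10 genes rose, among them Vcam1, an adhesion molecule, by 1.84 ± 0.18. The injury genes Clu and Sox9 were not called, at -0.43 ± 0.15 and 0.73 ± 0.29. In a macrophage list 10 of 11 rose, and Csf1r did not, at 0.001 ± 0.084. Of all genes tested, 6.23% rose. Summed macrophage markers were 339 to 557 CPM in kidneys labelled knockout and 184 to 229 CPM in those labelled wildtype, and their part in the ligand levels was not tested. Set against Hbegf within each library, Btc differed by 0.88 log2 units between the groups (exact permutation p = 0.0286, 0.257 adjusted over 9 pairs of members), and against Tgfa by 0.86 (p = 0.0571, adjusted 0.257). Since 0.0286 is the smallest p that 4 against 4 allows, a single pair could not pass once adjusted over 9, and these values do not show that the ligands responded alike.

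The makeup of the ligand pool is given per length, in CPM per kb of the union of exons in GENCODE M21, which may differ from the annotation used for counting. Egf made up 92.3%, 87.3%, 92.3% and 89.4% of the summed level of the 6 ligands in kidneys labelled knockout and 98.0% in each of the 4 labelled wildtype. The ratio of Egf to the sum of the other 5 was 11.9, 6.85, 12.0 and 8.41 in kidneys labelled knockout and 48.2, 49.8, 48.2 and 50.2 in those labelled wildtype. Btc was 48.2% to 60.0% of the sum of the other 5 in kidneys labelled knockout, against 34.3% to 45.0% in those labelled wildtype. These values combine members already described and carry no test.

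**Figure D2:**
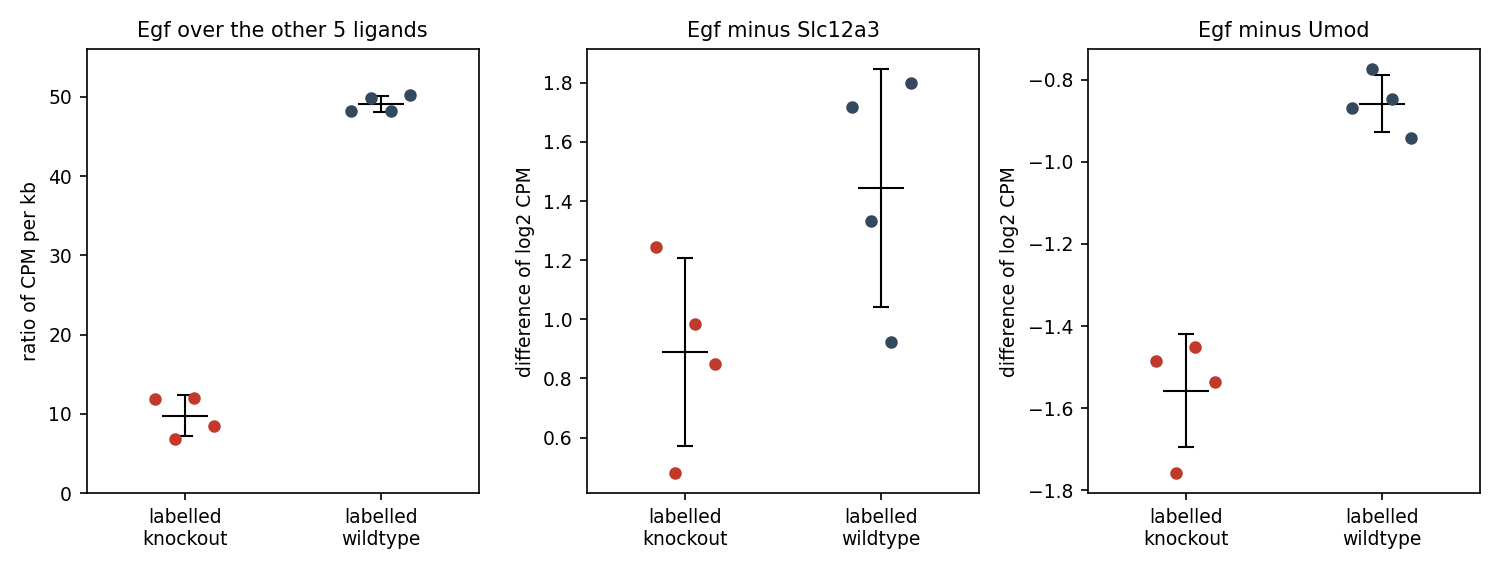
Egf set against other transcripts in each library: its level per kb over the sum of the other 5 ligands (left), and the difference of log2 CPM from Slc12a3 (middle) and from Umod (right). Points are libraries, bars and whiskers are mean and SD (n = 4 each); the groups overlap for Slc12a3 and are apart for Umod, at -1.56 against -0.86.

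Of the receptors, Egfr and Erbb2 fell. Egfr, the receptor of EGF, stood at 55.6, 48.0, 60.7 and 51.3 CPM in kidneys labelled knockout, against 73.3, 82.3, 69.0 and 74.1 CPM in those labelled wildtype. All libraries labelled knockout were below all labelled wildtype, and Egfr was 1.38-fold lower (log2 fold change -0.47 ± 0.086, edgeR adjusted p = 0.00557; -0.52 and 0.0533 once the clock score was a term). Erbb2, the receptor without a known ligand, stood at 118.3, 95, 100.7 and 102.0 CPM in kidneys labelled knockout, against 125.5, 125.7, 137.9 and 138.5 CPM in those labelled wildtype. The groups did not overlap (-0.34 ± 0.080, adjusted p = 0.0183), but the call ended without knockout 2 or 4 (adjusted p = 0.0589 and 0.0543) or wildtype 3 or 4 (0.0525 and 0.0511), with library totals only (-0.24, adjusted p = 0.0742) and once the clock score was a term (-0.16, adjusted p = 0.393).

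Erbb3, the neuregulin receptor, was at 122.2, 86.0, 99.1 and 82.2 CPM in kidneys labelled knockout, against 110.9, 135.2, 118.3 and 122.9 CPM in those labelled wildtype. Knockout 1 lay among the libraries labelled wildtype and the other 3 below them (-0.32 ± 0.12, edgeR adjusted p = 0.108). Without knockout 1 Erbb3 passed, at -0.45 with adjusted p = 0.0105. Erbb4 was at 34.96, 33.4, 29.97 and 28.2 CPM in kidneys labelled knockout, against 38.3, 42.5, 34.1 and 35.6 CPM in those labelled wildtype, with overlapping groups (-0.25 ± 0.095, adjusted p = 0.117). Over 6 receptor pairs, the largest difference was that of Egfr minus Erbb4, which averaged 0.77 ± 0.22 log2 units in kidneys labelled knockout (SD, n = 4), against 0.99 ± 0.06 (SD, n = 4) under the wildtype label, a difference of -0.22 (exact permutation p = 0.0857, 0.257 adjusted over 9 pairs). The summed level of the 4 receptors per kb was 50.8, 39.5, 43.6 and 40.1 in kidneys labelled knockout and 52.1, 57.3, 55.0 and 56.4 in those labelled wildtype.

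Btc held a different place among the per-length levels of the 2 groups. In kidneys labelled knockout the order was Egf at 102 ± 16.3 CPM per kb (SD), then Erbb2 at 20 ± 1.92, Erbb3 at 16.2 ± 3, Btc at 5.92 ± 1.35, Egfr at 4.76 ± 0.485, Hbegf at 3.06 ± 0.281, Erbb4 at 2.56 ± 0.249 and Tgfa at 1.71 ± 0.246. In kidneys labelled wildtype Egf was at 331 ± 35.3, Erbb2 at 25.3 ± 1.40, Erbb3 at 20.2 ± 1.69, Egfr at 6.59 ± 0.493, Erbb4 at 3.04 ± 0.298, Btc at 2.69 ± 0.496, Hbegf at 2.60 ± 0.437 and Tgfa at 1.43 ± 0.137 (n = 4 each). Btc thus stood above Egfr by its mean in kidneys labelled knockout, with overlapping ranges of 4.31 to 7.26 and 4.24 to 5.36, and below Erbb4 in those labelled wildtype. Neighbours whose ranges overlapped were Erbb2 and Erbb3, Btc and Egfr, and Hbegf and Erbb4 in kidneys labelled knockout, and Erbb4, Btc and Hbegf in those labelled wildtype.

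**Figure D3:**
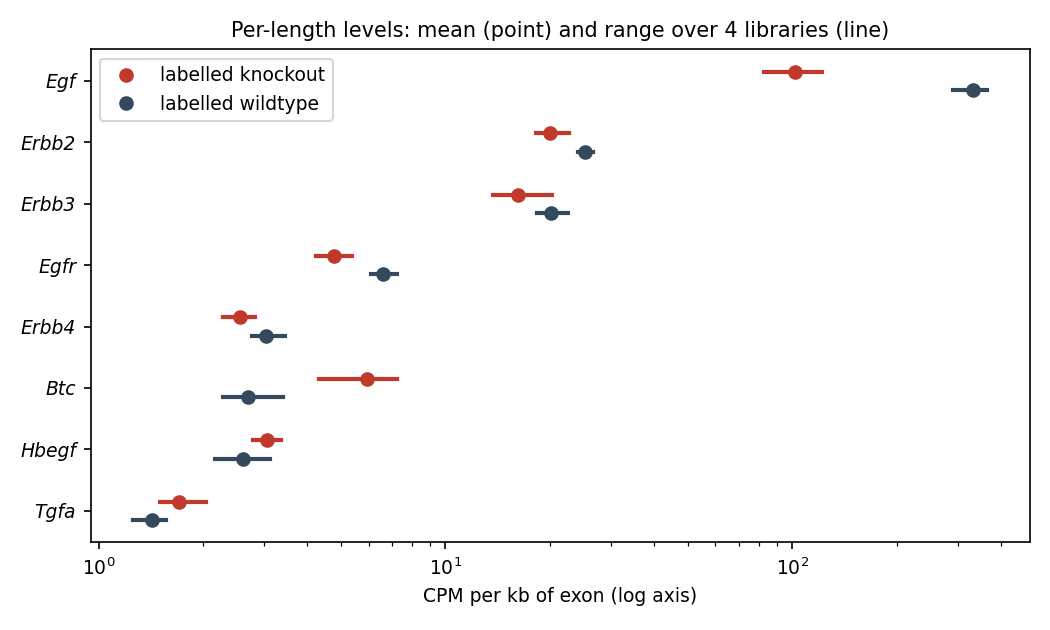
CPM per kb of exon on a log axis for the 8 tested members, with kidneys labelled knockout drawn above those labelled wildtype; points are means and lines run from the lowest to the highest of 4 libraries. Egf has the highest level in both groups, at 102 against 331, and Btc stands above Egfr and Erbb4 by its mean in kidneys labelled knockout and below both in those labelled wildtype.

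Other genes of the pathway came from 4 lists. Of the 5 other ERBB ligands, 2 were tested and neither passed. Nrg1, a ligand of ERBB3 and ERBB4, was at 4.68, 7.84, 10.2 and 9.97 CPM in kidneys labelled knockout, against 2.41, 4.60, 5.76 and 3.82 CPM in those labelled wildtype (0.97 ± 0.29, edgeR adjusted p = 0.059). Nrg1 passed without knockout 1 (1.16, adjusted p = 0.0138) or wildtype 3 (1.17, adjusted p = 0.0464), with DESeq2 (adjusted p = 0.0116) and with library totals only (1.065, adjusted p = 0.033). Nrg4, an ERBB4 ligand, averaged 4.90 ± 1.60 CPM in kidneys labelled knockout and 5.24 ± 0.92 CPM in those labelled wildtype (SD, n = 4 each), with a log2 fold change of -0.09 that turns positive in some fits. Epgn, Nrg2 and Nrg3 stood below 1 CPM in every library.

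Of 8 genes of ligand shedding, 3 rose and none fell, while 6.23% of all genes tested rose and 5.7% fell. Their median log2 fold change was 0.06, against 0.00 over all genes tested. Rhbdf2, an inactive rhomboid that carries the sheddase ADAM17 to the surface, was at 23.7 ± 3.10 CPM in kidneys labelled knockout and 17.2 ± 0.38 CPM in those labelled wildtype (log2 fold change 0.46 ± 0.10, edgeR adjusted p = 0.0142); it did not pass without both knockout 1 and 4 (adjusted p = 0.063) or once the clock score was a term (0.137). Rhbdl2, a rhomboid protease, and Adam12, a metalloprotease, rose by 0.89 ± 0.23 (adjusted p = 0.0315) and 0.72 ± 0.19 (adjusted p = 0.0335). Rhbdl2 did not pass without knockout 1, 2 or 4 or wildtype 3 or 4 (adjusted p = 0.0609 to 0.0855), nor Adam12 without knockout 1 or 2 or any library labelled wildtype (0.0528 to 0.091), and neither passed without both knockout 1 and 4 (0.159 and 0.126) or beside the clock score (0.213 and 0.0645). The sheddases Adam17 and Adam10 had log2 fold changes of 0.01 ± 0.062 and -0.08 ± 0.062.

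Of 10 genes that restrain the receptors, 1 rose and 1 fell, with a median of -0.03. That is near the share of all genes tested, of which 6.23% rose and 5.7% fell. Socs5, a suppressor of cytokine and EGF receptor signalling, fell to 36.3 ± 2.29 CPM in kidneys labelled knockout, against 53.3 ± 2.43 CPM in those labelled wildtype (-0.55 ± 0.071, edgeR adjusted p = 0.000825), and Cblb, a ubiquitin ligase that removes activated receptors, rose by 0.39 ± 0.090 (adjusted p = 0.0183; 0.0513 without wildtype 2, 0.086 without both knockout 1 and 4, 0.0527 beside the clock score). Errfi1, a direct EGFR inhibitor, had -0.09 ± 0.19. Of 21 genes that carry the signal inside the cell, 1 rose and 1 fell, again near that share, with a median of 0.00. Stat3, a transcription factor activated by many receptors, rose by 0.42 ± 0.071 (adjusted p = 0.00401), and Gab1, a docking protein of the EGF receptor, fell by 0.35 ± 0.077 (adjusted p = 0.0149; 0.0563 with library totals only and 0.257 beside the clock score). The other 19 did not pass, and their log2 fold changes lay between those of Plcg1 at 0.22 ± 0.067 and Sos2 at -0.18 ± 0.078. Plcg1, a phospholipase that EGFR activates, passed with DESeq2 (edgeR adjusted p = 0.0544, DESeq2 adjusted p = 0.0283), upper quartile factors (0.0373) and library totals only (0.0149).

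**Figure D4:**
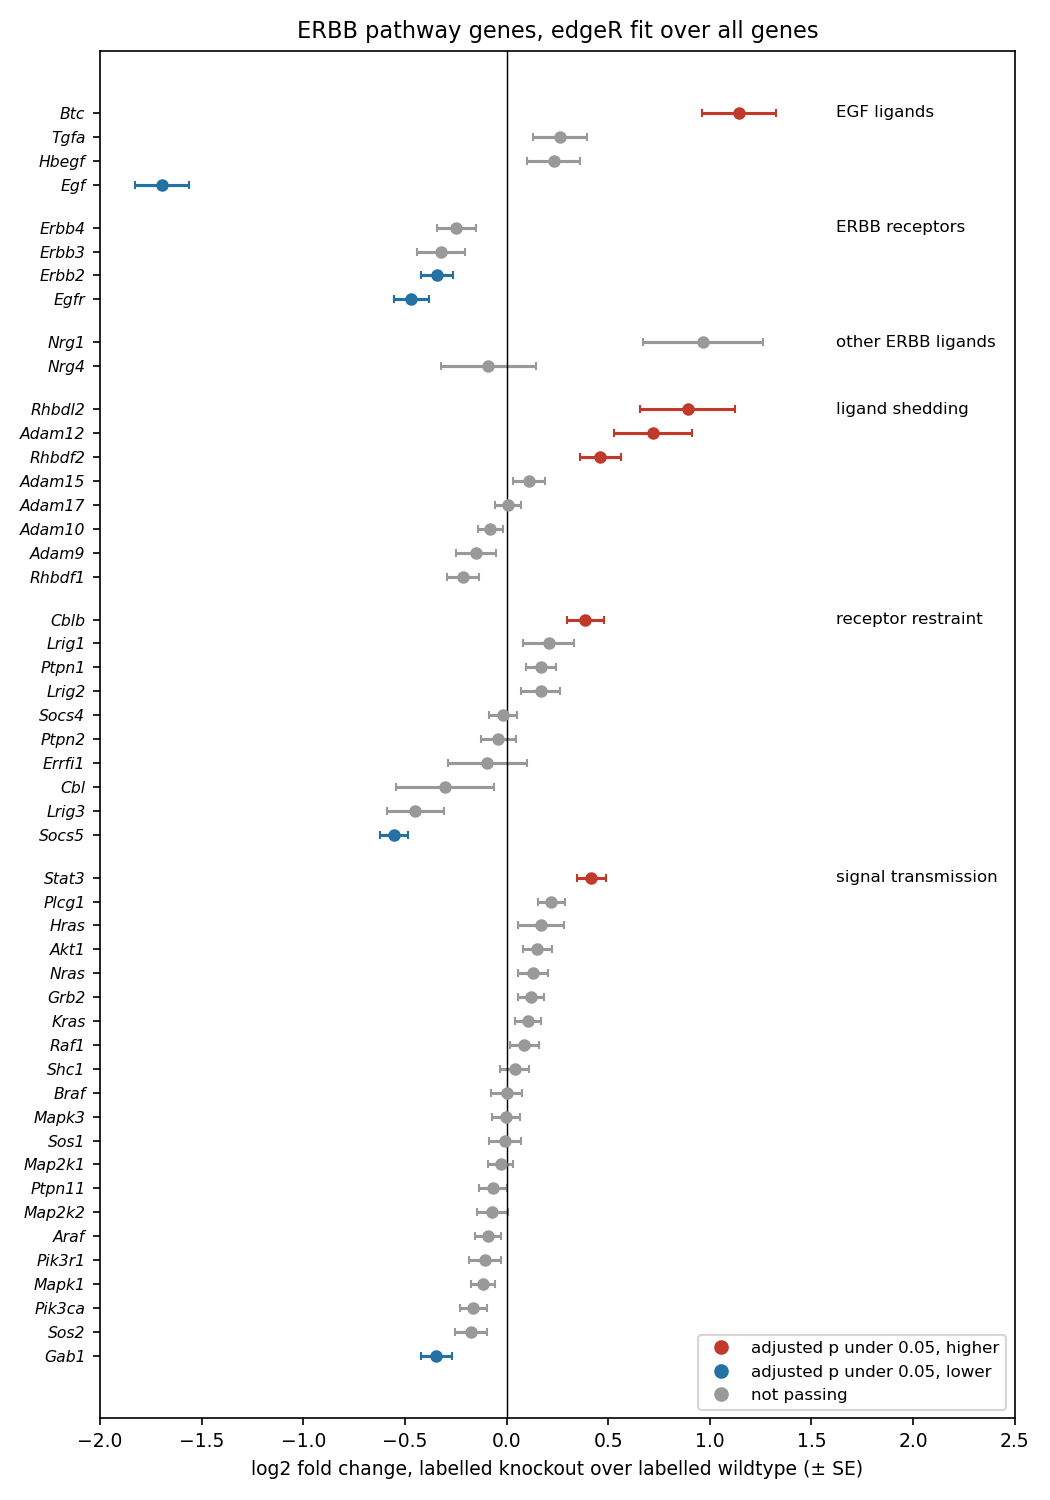
Log2 fold change with its SE, labelled knockout over labelled wildtype, for every tested gene of the ligands, receptors and 4 pathway lists; coloured points passed at an adjusted p under 0.05. Egf and Btc lie farthest from 0 among the genes that passed, at -1.70 and 1.14, and most signal transmission genes lie close to 0.

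For each member that passed, the 3 genes of closest pattern were found among 11796 others as the smallest root mean square distance of centred log2 CPM over the 8 libraries. For Egf these were Gm15848 at 0.137 log2 units, Vstm2a at 0.202 and Cacnb4, a calcium channel subunit gene, at 0.222. The spread of Egf itself was 0.869. Gm15848 is annotated as an antisense RNA gene and is not among the genes that overlap Egf. As the counts are not stranded, reads of a gene on its other strand may be among its counts. The log2 fold changes of these 3 genes were -1.64, -1.60 and -1.96. For Btc they were Wfdc2, Sh3bgrl3 and Mcoln3 at 0.171 to 0.178, against a spread of 0.617. For Egfr they included Itgb8 at 0.044 and Mipep at 0.055 (spread 0.261), and for Erbb2 they were Crim1, Gab1 and Slc45a4 at 0.042 to 0.047 (spread 0.198). The distance includes the difference between the groups. Once the clock score was a term, Sh3bgrl3 (edgeR adjusted p = 0.0526), Itgb8 (0.0743), Crim1 (0.446) and Slc45a4 (0.109) did not pass.

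Markers of other kidney cells are set beside these results, with 6.23% of all genes tested rising and 5.7% falling. Of 9 principal cell genes 8 were tested and 7 rose, and of 9 intercalated cell genes 7 rose, among them Slc26a4, the exchanger pendrin, by 1.51 ± 0.097. The principal cell gene Aqp4 went the other way without passing (-1.39 ± 0.40, edgeR adjusted p = 0.067), and its groups did not overlap. The intercalated cell genes Slc4a1 and Atp6v1b1 were not called, at -0.20 ± 0.12 and 0.07 ± 0.087. Of 10 proximal tubule genes 3 fell, and of 6 endothelial and 5 podocyte genes 2 fell in each list. Of 6 urothelial genes 1 rose, with summed levels of 42.9 to 56.2 CPM in kidneys labelled knockout and 30.9 to 45.9 CPM in those labelled wildtype. Summed proximal markers were 10300 to 15300 CPM in kidneys labelled knockout and 16700 to 19300 CPM in those labelled wildtype. The part of these shifts in the member levels was not tested.

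**Figure D5:**
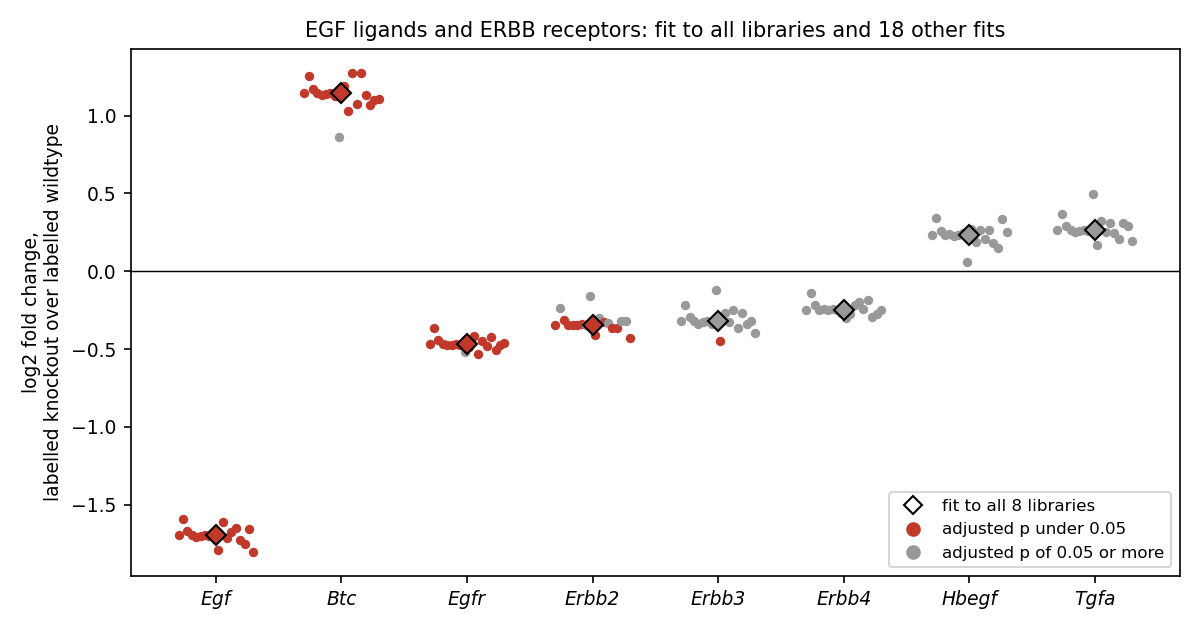
Log2 fold change of each tested member, labelled knockout over labelled wildtype, in the fit to all 8 libraries (diamonds) and in 18 other fits (dots), coloured where the adjusted p was under 0.05. Egf passed in all 18, Btc and Egfr in 17 each and Erbb2 in 11, and no member changed sign.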

How the data were processed

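Whole-kidney RNA of 8 libraries was measured. The deposited values are whole-number counts of reads per gene, not normalized, as the authors' files show. The submitters' processing notes name the build mm9 and the tools HTSeq, STAR and edgeR; neither versions nor the annotation are stated. Per the labels' protocols the kit marks strand, while the deposited files are named as not stranded. The counter's summary rows were left out; gene counts were 63.8% to 69.1% of all records.

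Genes were kept by filterByExpr, scaled by TMM and tested two-sided with the robust quasi-likelihood fit of edgeR 4.0.16 in R 4.3.3, with Benjamini-Hochberg adjustment over 15228 genes at 0.05. Log2 CPM used a prior count of 2. For single values the test was an exact two-sided permutation of the group labels (70 assignments). Alternatives used limma 3.58.1 voom, DESeq2 1.42.0, other scalings, filters and thresholds, a replicate block, a clock score and left-out libraries. On simulated data for this comparison over 15228 genes, 64% of genes changed 1.5-fold and 90% of those changed 2-fold were recovered, and 6.49% of calls were false. Only 50 genes were changed at each fold, none of them of low count, and the simulated spread was that fitted to these libraries. The rates therefore need not hold for low-count genes, or where more genes change.

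The members, lists and tests were chosen with earlier results of these data known; the 9 pairs of members were added after their values were seen. Named genes are the members, the other ERBB ligands, up to 4 genes of each pathway list and 3 of each marker list with the smallest adjusted p, and the 3 genes of closest pattern to each member that passed; other list members are named by choice after their values were seen. One gene of closest pattern to Egfr is not reported here. Each library was counted as 1 sample because its label names it a replicate. Libraries of a group differed by 9.72 to 24.8 in chi-square per degree of freedom. These values cannot show whether the libraries came from different animals.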

Additional observations from a re-analysis of the deposited data

How the results depend on the processing

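Egf fell in each of 18 other fits. With the clock score as a term, 699 genes changed against 1817, 0 members rose and 1 fell, Egf; the cause was not tested. A replicate block gave 1094 genes, with 2 members falling. There Egf minus Umod was -0.70 with exact permutation p = 0.125, the smallest that 4 pairs allow. Same-numbered libraries had correlations of deviations of -0.215 to 0.157 over 15228 genes, against -0.32 to 0.349 for libraries of different number. As the first range lies within the second, these values cannot show whether the numbers pair the samples. Without both knockout 1 and 4, 912 genes changed, and Egf minus Umod was -0.75 (exact permutation p = 0.0667, the smallest that 2 against 4 allows). Leaving out each library gave 1076 to 1940 genes, and 2 to 4 members falling. Without knockout 4 alone, 1176 genes changed. There Egf was at -1.67 (edgeR adjusted p = 0.000296), Btc at 1.07 (0.0112) and Egfr at -0.45 (0.0223). Thresholds of 0.01 and 0.10 gave 706 and 2850 genes. With library totals only, 2 members fell, Egf and Egfr. Among the named genes the block ended the calls of Erbb2 (adjusted p = 0.0586), Adam12 (0.0808) and Crim1 (0.0848), and Nrg1 passed (0.0158); marker genes whose calls it ended include Slc34a1, Flt1 and Kdr. Nrg4, never called, was 0.022 with library totals only and ran from -0.27 without knockout 2 to 0.055 without knockout 3. Tgfa, Hbegf and Btc had 112 to 561 counts per library, and Areg and Ereg were too shallow for the test over all genes.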
